A study of Mus musculus with 10 samples.

Results

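In RNA of sorted cardiomyocytes from mice with a cardiac deletion of alpha-actinin-2, mRNA of the vascular growth factors Vegfb and Angpt1 was lower than in heterozygotes. The genes described here are 10 of the 23337 in the deposited table, taken by gene name. They comprise 6 genes of secreted ligands (Vegfa, Vegfb, Vegfc, Pgf, Angpt1 and Angpt2) and 4 genes of the receptors that endothelial cells use to bind them or to signal with them (Kdr, Flt1, Tek and Tie1). All 10 were found and 9 passed the filter on low counts, Pgf being the exception. Poly(A) RNA was measured in heart muscle cells of 10 mice aged 14 postnatal days. All animals received 3.6e+08 viral genomes per gram of an AAV9 vector on postnatal day 1, in which the troponin T promoter of heart muscle drives Cre (AAV9-cTNT-Cre), so recombination was directed to cardiomyocytes and not to the vessel cells around them. The knockout group (Actn2-FF, n = 5) has both copies of Actn2, which codes for alpha-actinin-2, floxed (2 alleles), and the heterozygote group (Actn2-F+, n = 5) carries 1 floxed and 1 normal allele. The heterozygotes are the controls and are not free of Cre or of the floxed allele. The labels name neither the sex of the animals nor a batch.

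Vascular endothelial growth factors and angiopoietins are the main secreted factors by which heart muscle and supporting cells act on the capillary bed. Vegfa binds the tyrosine kinase receptors Kdr (VEGFR2), which carries most of the growth signal, and Flt1 (VEGFR1), which binds tightly and signals weakly. Vegfb and Pgf bind Flt1, and Vegfc acts chiefly on the lymphatic receptor Flt4. Angpt1 activates the receptor Tek (Tie2) and stabilises vessels, Angpt2 can oppose it, and Tie1 is a partner receptor of Tek. In the heart the ligands Vegfa and Vegfb are made in quantity by cardiomyocytes, whereas Kdr, Flt1, Tek and Tie1 are classical genes of endothelial cells.

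Stretches of genome just upstream of the start of the gene are shown for Vegfb, the ligand with the lowest adjusted p, and for the 4 receptor genes, since they are known as endothelial genes. They come from RefSeq (build GRCm38.p6), which had entries for 8 of the 10 genes. Each is the 250 bases before the RefSeq start, written 5′ to 3′ on the strand of the gene. For Kdr, Flt1 and Tek that start lies slightly upstream of the gene boundary given below, which comes from the annotation of the counts. In the Vegfb sequence, chr19:6987652-6987901 on the minus strand, capitals mark TGACCT on either strand (AGGTCA read from the other), a half-site that many nuclear receptors bind. In the receptor sequences, capitals mark GGAA on either strand, the core recognised by ETS factors, which are known activators of endothelial genes.
Vegfb: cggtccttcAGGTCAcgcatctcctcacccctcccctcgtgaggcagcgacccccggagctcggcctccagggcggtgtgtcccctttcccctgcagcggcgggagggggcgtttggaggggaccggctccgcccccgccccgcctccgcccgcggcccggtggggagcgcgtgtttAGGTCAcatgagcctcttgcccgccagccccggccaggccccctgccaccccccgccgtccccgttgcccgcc
Kdr: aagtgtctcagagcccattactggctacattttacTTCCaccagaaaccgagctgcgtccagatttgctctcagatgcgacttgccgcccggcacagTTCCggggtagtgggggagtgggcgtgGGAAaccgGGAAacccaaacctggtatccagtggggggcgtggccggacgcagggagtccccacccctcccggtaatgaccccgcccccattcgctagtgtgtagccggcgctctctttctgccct
Flt1: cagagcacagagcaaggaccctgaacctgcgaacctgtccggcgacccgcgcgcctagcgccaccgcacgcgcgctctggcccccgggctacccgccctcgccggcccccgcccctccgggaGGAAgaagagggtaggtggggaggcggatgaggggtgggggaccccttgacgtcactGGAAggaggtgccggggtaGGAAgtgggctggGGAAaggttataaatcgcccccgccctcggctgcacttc
Tek: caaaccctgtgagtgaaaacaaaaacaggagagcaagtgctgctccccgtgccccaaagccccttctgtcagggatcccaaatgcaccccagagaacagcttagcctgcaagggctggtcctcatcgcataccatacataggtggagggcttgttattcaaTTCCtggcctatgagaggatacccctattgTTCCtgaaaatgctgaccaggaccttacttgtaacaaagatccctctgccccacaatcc
Tie1: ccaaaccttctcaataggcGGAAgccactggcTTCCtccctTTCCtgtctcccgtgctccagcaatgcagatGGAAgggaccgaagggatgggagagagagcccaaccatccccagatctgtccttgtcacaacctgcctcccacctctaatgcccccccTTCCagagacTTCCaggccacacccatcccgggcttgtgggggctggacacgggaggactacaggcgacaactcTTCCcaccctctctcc
The receptor windows lie at chr5:75978456-75978705 (Kdr, minus strand), chr5:147726012-147726261 (Flt1, minus), chr4:94739039-94739288 (Tek, plus) and chr4:118489850-118490099 (Tie1, minus). TGACCT occurred at 2 places before Vegfb, and at none before the other 7 genes with an entry, while 14% of all 32851 promoter windows of that length hold it. GGAA occurred at 4 places before Kdr, 4 before Flt1, 2 before Tek and 7 before Tie1, where the median over all windows was 3 and 93.4% held at least 1. It also occurred before the ligand genes Vegfa, Vegfb and Vegfc, and is left unmarked in the Vegfb sequence. These are matches of letters only.

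The labels were checked on the targeted gene first. Actn2 stood between 1145 and 1286 CPM in the knockouts and between 2677 and 3474 CPM in the heterozygotes, where CPM is the number of reads of a gene for each 1e+06 reads of the library, after TMM scaling (trimmed mean of M-values). Total counts per sample ran from 8086656 to 25237696. Defining cardiomyocyte genes were abundant in every library, with Myh6 between 35221 and 56474 CPM and Tnnt2 between 9051 and 13763 CPM. Endothelial genes were present too, with the 22 endothelial markers of a fixed list summing to between 646 and 1805 CPM, and none of them was at 0 in all samples. Heterozygote 3 stood apart in 9 interferon-response genes, which summed to 701 CPM there and to between 26.8 and 42.9 CPM in the other 9 libraries. Without that animal Vegfb was at -0.72 and Angpt1 at -0.94 on the log2 scale (adjusted p 0.00135 and 0.0232 by edgeR), both still called. Y-linked genes were at or near 0 in heterozygotes 3 and 5 and knockout 5 and high in the other 7.

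Among the members, 2 of the 9 tested genes were called lower in the knockout and none higher (edgeR's quasi-likelihood test, Benjamini-Hochberg adjusted p below 0.05 over all 11870 tested genes). Of all tested genes 18.9% were called, 8.64% lower and 10.2% higher. Of those calls 54.3% were higher, a share that moved to 68.9% with scaling by library totals alone. At an unadjusted p below 0.05, 8 of the 9 members were lower, against 15.7% of all tested genes. All 9 had a log2 fold change below 0, as had 49.7% of all tested genes, and their median was -0.48 against 0.0023 over all. This direction was the same for the 9 genes under TMM, RLE, upper-quartile and library-total scaling. The groups did not overlap in 2 members (Vegfa and Vegfb), both lower in the knockout, against 6.32% of all tested genes.

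**Figure D1:**
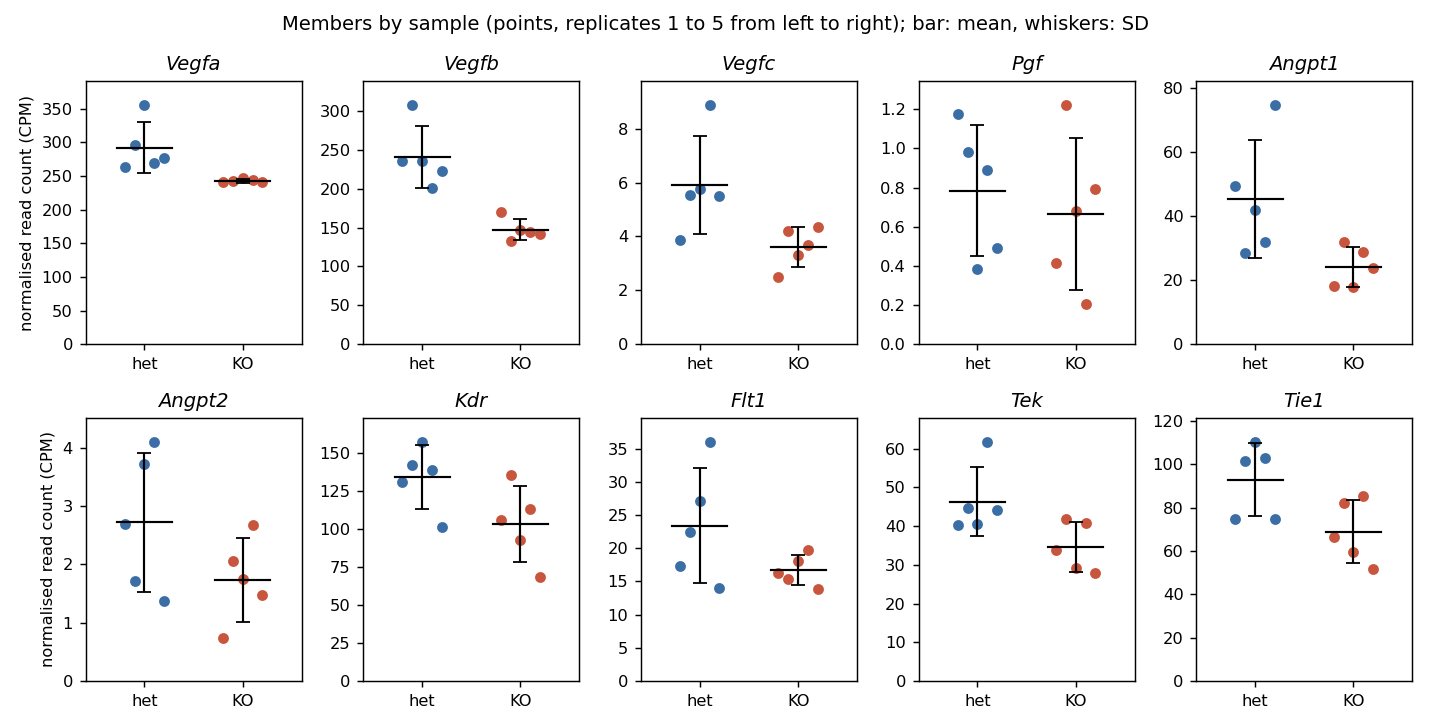
Normalised read count (CPM, linear axes from 0) of the 10 members in each of the 5 heterozygote (het) and 5 knockout (KO) samples, with the group mean as a bar and the SD as whiskers. For Vegfa and Vegfb every knockout point lies below every heterozygote point, and the groups overlap for the other 8 genes.

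Vegfb encodes a ligand of Flt1 that is known in the heart for its link to fatty acid handling and coronary growth. Its 7 annotated exons span 6982472 to 6987651 of chromosome 19 (mm10, as for all positions of genes here; minus strand). Its level was 235, 308, 236, 201 and 223 CPM in heterozygotes 1 to 5, and 170, 133, 147, 145 and 142 CPM in knockouts 1 to 5. Every knockout lay below the lowest heterozygote. The group means were 241 ± 40.0 CPM in the heterozygote and 147 ± 13.5 CPM in the knockout (SD, n = 5 each). The log2 fold change was -0.71 (standard error 0.115, adjusted p 0.000728 by edgeR), which is 38.8% less than in the heterozygote. The call held in each of the 10 fits without a single animal and in the 10 other settings.

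Vegfa, the principal angiogenic ligand (chromosome 17, 46016993 to 46032377, minus strand, 8 exons), was tightly grouped in the knockout. Its level was 264, 296, 356, 269 and 276 CPM in heterozygotes 1 to 5 and 241, 242, 248, 245 and 241 CPM in knockouts 1 to 5. The highest knockout lay below the lowest heterozygote, by a margin that is small beside the spread among the heterozygotes. The means were 292 ± 37.6 and 243 ± 3.07 CPM (SD, n = 5), and the log2 fold change of -0.26 (SE 0.0935, 95% interval -0.46 to -0.06) did not pass the threshold (edgeR adjusted p 0.0638). The highest value came from heterozygote 3, and without that animal the log2 fold change was -0.19 (edgeR adjusted p 0.145). Vegfa passed with upper-quartile scaling (adjusted p 0.0403), with DESeq2 (0.0198) and with limma's voom (0.0481), over a range of 0.0198 to 0.279 in the settings that kept all animals.

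The lesser ligands of this family were scarce. Vegfc (chromosome 8, 54077532 to 54186454, plus strand) stood at 3.86, 5.53, 5.77, 8.88 and 5.51 CPM in heterozygotes 1 to 5 and at 2.50, 4.20, 3.32, 3.69 and 4.36 CPM in knockouts 1 to 5. The groups overlapped, since heterozygote 1 fell among the knockouts. Its log2 fold change was -0.68 (standard error 0.241, adjusted p 0.0638 by edgeR), and the settings in which it passed included DESeq2 (0.0371) and the fit without heterozygote 1 (edgeR adjusted p 0.0315). Pgf, placental growth factor (chromosome 12, 85166641 to 85177285, minus strand), gave 2 to 28 reads per library and was not tested. It had 3 reads in heterozygote 3 and 2 in knockout 4. Its mean was 0.785 ± 0.335 CPM in the heterozygote and 0.664 ± 0.387 CPM in the knockout (SD, n = 5), and the values of the groups were interleaved, so that no difference was detectable at this depth.

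Angpt1, the agonist of Tek (chromosome 15, 42424725 to 42676795, minus strand, 9 exons), also fell. It stood at 49.4, 28.5, 41.8, 31.7 and 74.6 CPM in heterozygotes 1 to 5 and at 18.2, 32, 17.9, 28.6 and 23.8 CPM in knockouts 1 to 5. The groups overlapped, with knockouts 2 and 4 above heterozygote 2 and knockout 2 also just above heterozygote 4. The means were 45.2 ± 18.4 and 24.1 ± 6.26 CPM (SD, n = 5), which gave -0.91 as log2 fold change (standard error 0.242, adjusted p 0.0171 by edgeR) or 46.7% less. The call held without any single animal, with edgeR adjusted p between 0.00899 and 0.0498. Heterozygote 5 was far above its group, and without it the log2 fold change was -0.65 (edgeR adjusted p 0.0405). Which cells of the libraries the Angpt1 reads came from was not tested.

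Angpt2, the context-dependent antagonist (chromosome 8, 18691337 to 18741551, minus strand), lies inside the span of Mcph1 but shares no exon with it. It was rare, at 1.38 to 4.11 CPM in the heterozygotes and 0.729 to 2.67 CPM in the knockouts. The log2 fold change of -0.64 had an SE of 0.367 and an edgeR adjusted p of 0.250, within the spread between replicates.

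Kdr, the main signalling receptor for Vegfa (chromosome 5, 75933270 to 75978428, minus strand, 30 exons), stood at 131, 142, 158, 139 and 101 CPM in heterozygotes 1 to 5. In knockouts 1 to 5 it was at 106, 136, 93.0, 113 and 68.6 CPM. The groups overlapped, with heterozygote 5 below 3 of the knockouts. The log2 fold change was -0.38 (standard error 0.162, 95% interval -0.72 to -0.03, adjusted p 0.122 by edgeR). For this and all other members, ligands included, fewer cells of a type and less RNA per cell cannot be told apart in RNA pooled from many sorted cells.

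Flt1, the high-affinity receptor for Vegfa, Vegfb and Pgf (chromosome 5, 147562196 to 147725988, minus strand), was at 17.3, 22.5, 27.2, 36.1 and 14.0 CPM in heterozygotes 1 to 5 and at 16.3, 15.4, 18, 19.8 and 13.9 CPM in knockouts 1 to 5. The knockouts were close together, and the heterozygotes reached from within their range (animals 1 and 5) to well above it. The log2 fold change was -0.48 (standard error 0.215, adjusted p 0.137 by edgeR), and its size turned on single animals. Without heterozygote 5 it was -0.62 and passed (edgeR adjusted p 0.0422), without heterozygote 4 it was -0.27 (0.346), and with voom it was -0.24 (0.446).

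Tek (chromosome 4, 94739300 to 94874939, plus strand), the receptor of both angiopoietins, was at 40.3, 44.6, 40.6, 61.8 and 44.2 CPM in heterozygotes 1 to 5 and at 33.9, 41.9, 29.1, 40.7 and 27.9 CPM in knockouts 1 to 5. The log2 fold change was -0.41 (standard error 0.147, adjusted p 0.0648 by edgeR). Tie1 (chromosome 4, 118471191 to 118489849, minus strand), its partner, was at 74.9, 102, 110, 103 and 75.0 CPM in the heterozygotes and at 66.2, 82.2, 59.3, 85.4 and 51.6 CPM in the knockouts, a log2 fold change of -0.43 (standard error 0.155, adjusted p 0.0681 by edgeR). In both genes 3 of the 5 knockouts lay below all heterozygotes. In the edgeR fit without covariates no receptor was called. At an unadjusted p below 0.05, 4 of 4 were lower, against 15.7% of all tested genes. With a covariate for Y-linked genes edgeR called Tek (adjusted p 0.0326). DESeq2 called Tek and Tie1 (adjusted p 0.0375 and 0.0345), and voom called none of the 4.

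The endothelial markers were read beside the receptors. Pecam1, an adhesion molecule of endothelial junctions, was at 83.1 ± 14.1 CPM in the heterozygote and 62.8 ± 12.7 CPM in the knockout (SD, n = 5), a difference of -0.40 in log2 (edgeR adjusted p 0.0681). Cdh5, the cadherin of those junctions, was at 66.5 ± 11.1 and 50.2 ± 14.6 CPM (-0.41, edgeR adjusted p 0.126). All 22 markers of the list had a log2 fold change below 0, from -0.76 to -0.06 with a median of -0.50. Below 0 were also 49.7% of all tested genes. Of the 22 markers 5 were called lower and none higher, against 8.64% and 10.2% of all tested genes. The 4 receptors ran from -0.48 to -0.38. Among the called markers Cldn5, Egfl7, Icam2 and Ushbp1 had the largest changes (-0.76, -0.65, -0.58 and -0.54, edgeR adjusted p 0.0365, 0.00612, 0.0438 and 0.0259). The calls of Cldn5, Icam2 and Ushbp1 held in only 4, 3 and 5 of the 10 fits without a single animal and were lost with scaling by library totals (edgeR adjusted p 0.0686, 0.0851 and 0.0636), and that of Icam2 also with voom (0.0988). The call of Egfl7 held in every setting it was run in.

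**Figure D2:**
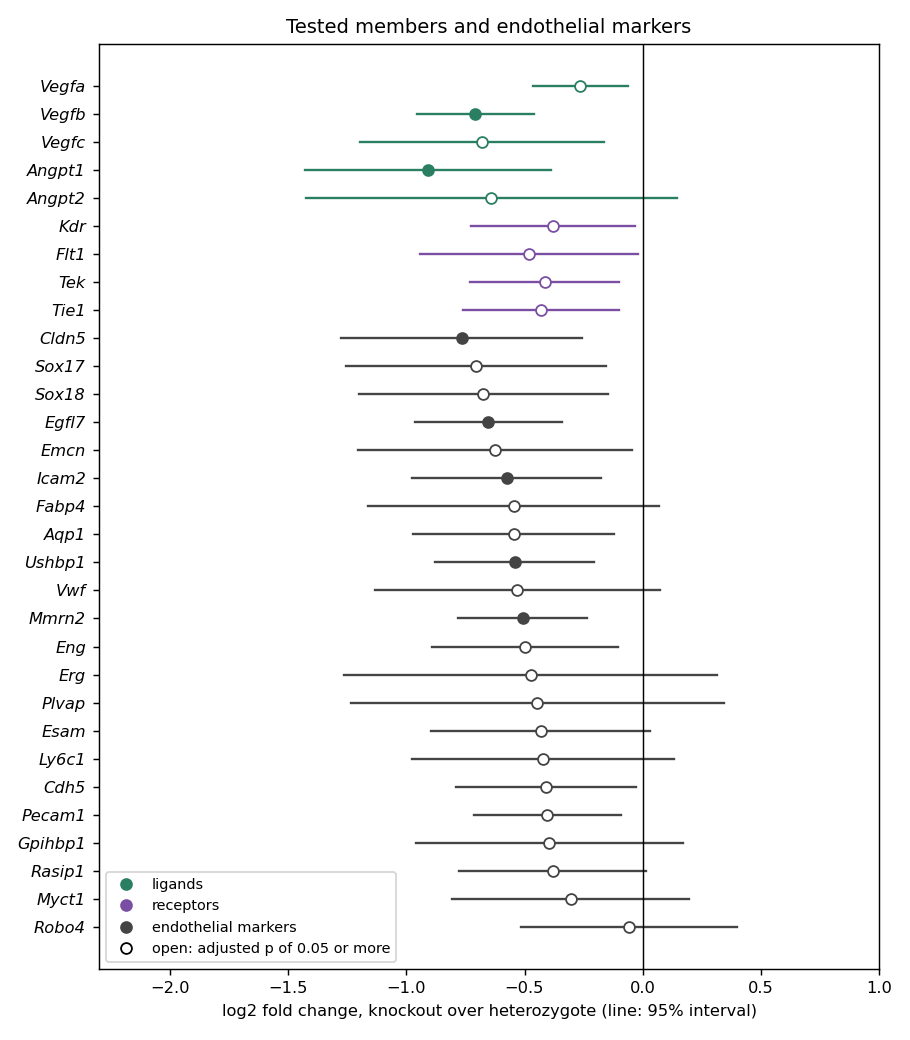
Log2 fold change of the knockout over the heterozygote for the 9 tested members and the 22 endothelial markers (points, filled where the edgeR adjusted p was below 0.05) with 95% intervals (lines). The 4 receptors lie between -0.48 and -0.38, among the markers, and only Vegfb and Angpt1 are filled among the members.

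The summed endothelial markers were at 965, 978, 1273, 1805 and 951 CPM in heterozygotes 1 to 5 and at 812, 804, 803, 1176 and 646 CPM in knockouts 1 to 5. Replicate 4 was the highest of each group and knockout 5 the lowest of all. The sum weighs abundant markers most. The most abundant, Fabp4, was at 244 ± 135 CPM in the heterozygote and 167 ± 46.0 CPM in the knockout (SD, n = 5). Set against the sum of the markers, the receptors stood level in the groups. Per 100 CPM of markers there were 11.8 ± 2.70 CPM of Kdr in the heterozygote and 12.3 ± 2.82 in the knockout, 1.94 ± 0.321 and 2.0 ± 0.217 of Flt1, 4.0 ± 0.661 and 4.16 ± 0.692 of Tek, and 8.08 ± 1.69 and 8.20 ± 1.19 of Tie1 (SD, n = 5). The groups overlapped in all 4 ratios. The markers are endothelial genes like the receptors and all had a log2 fold change below 0. Ratios to them, or a covariate made from them, therefore cannot separate cell content from RNA per cell. With the mean log2 CPM of the markers as a covariate in the edgeR fit, the log2 fold changes were -0.17 for Kdr (SE 0.191, adjusted p 0.660), 0.10 for Flt1 (SE 0.159, adjusted p 0.769), -0.15 for Tek (SE 0.148, adjusted p 0.603) and -0.14 for Tie1 (SE 0.155, adjusted p 0.657). In that fit Vegfb was at -0.80 (SE 0.145, adjusted p 0.00306) and Angpt1 at -1.1 (SE 0.276, adjusted p 0.0196), both called as before. Vegfa was at -0.23 (adjusted p 0.279), Vegfc at -0.34 (0.517) and Angpt2 at 0.0022 (0.999).

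**Figure D3:**
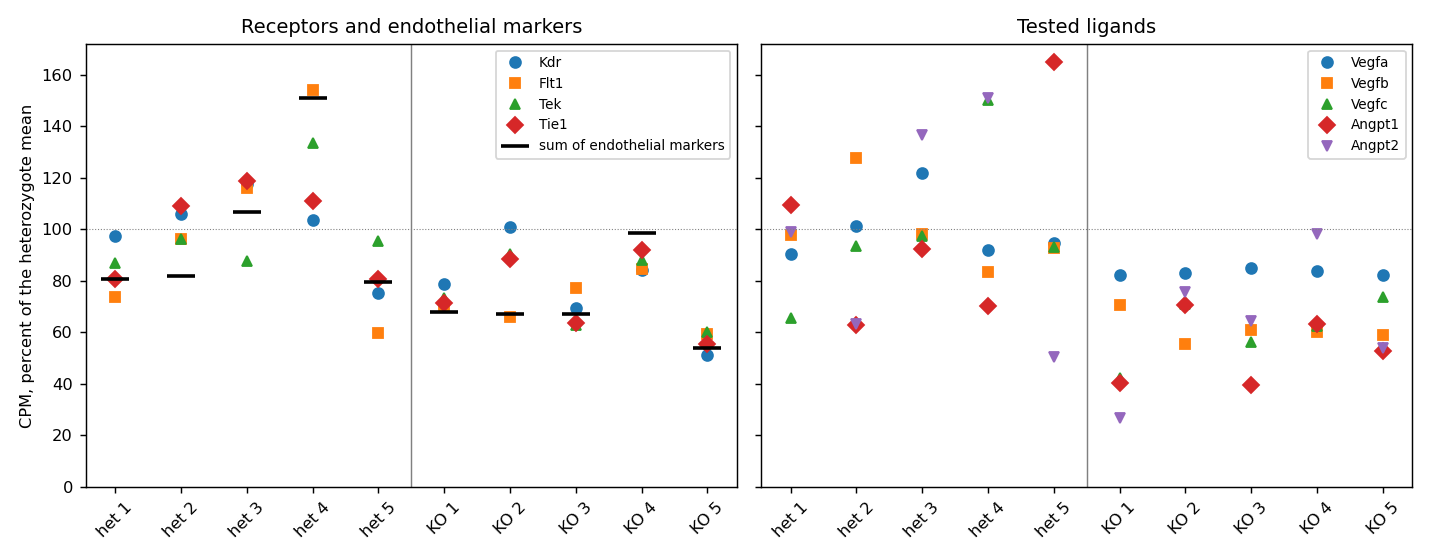
CPM of each tested member in the 10 samples as a percent of its heterozygote mean, receptors with the summed endothelial markers on the left and ligands on the right. Knockout 5 is the lowest of the 10 samples for the marker sum and for all 4 receptors, whereas the lowest Vegfb level is that of knockout 2.

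Levels of different genes were compared as CPM per kilobase of exon. In the heterozygote Vegfb was the most abundant on this scale, at 188 ± 31.2, followed by Vegfa at 70.0 ± 9.01 (SD, n = 5). The ranges of the samples did not overlap between these ranks. Before division by length the heterozygote means were 292 CPM for Vegfa and 241 CPM for Vegfb. The order of these 2 thus rests on their annotated exon lengths, 4174 and 1282 bases. Kdr (24.6 ± 3.83) and Tie1 (24.0 ± 4.34) came next, with overlapping ranges. Ranges also overlapped for Angpt1 (11.1 ± 4.51) with Tek (9.95 ± 1.91) and for Flt1 (3.72 ± 1.38) with Vegfc (3.14 ± 0.971). The same held for Angpt2 (1.1 ± 0.483) with Pgf (0.500 ± 0.213), although Angpt2 lay above Pgf in each heterozygote. In the other pairs the order varied between heterozygotes. In the knockout the order was the same apart from Tek (7.46 ± 1.39), which then ranked above Angpt1 (5.91 ± 1.54). Tek lay above Angpt1 in each knockout, although the ranges overlapped. Vegfa and Vegfb made up 94.1% ± 1.78 of the ligand level in the heterozygote and 95% ± 1.37 in the knockout. Vegfb stood at 2.70 ± 0.466 times the level of Vegfa in the heterozygote and 1.97 ± 0.191 times in the knockout, with overlap through knockout 1 (2.30) and heterozygote 3 (2.16). The 6 ligands together came to 274 ± 32.2 in the heterozygote and 182 ± 8.57 in the knockout, and the 4 receptors to 62.3 ± 9.65 and 46.8 ± 9.58. The groups did not overlap in the ligand sum, of which Vegfb is the larger portion, and overlapped in the receptor sum. The ratio of ligands to receptors was 4.48 ± 0.791 and 4.03 ± 0.878 (SD, n = 5), also with overlap.

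Likeness of pattern was measured as the mean absolute difference between log2 CPM profiles over the 10 samples, after the mean of each gene was subtracted, among the 8369 genes that averaged 10 CPM or more. For Kdr the closest were Dll4, a Notch ligand of endothelial tip cells, Ltbp4, Ets1, N4bp3 and Tie1, at 0.11 to 0.13, where the median gene was at 0.33. For Vegfa the closest were Flot1, Rilpl1, Sh3kbp1, Paf1 and Wdsub1, at 0.066 to 0.072, where the median gene was at 0.23.

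Among 17 tested co-receptors and signal carriers of these pathways, 2 were called higher and 1 lower, against 10.2% and 8.64% of all tested genes. The median log2 fold change of this list was -0.04. Src, a kinase that relays receptor signals, rose from 1.70 ± 0.370 to 4.69 CPM (log2 fold change 1.48, edgeR adjusted p 0.00147), and Pik3ca, the catalytic subunit of PI3-kinase, rose by 0.51 (adjusted p 0.00481, and with the endothelial covariate 0.44, adjusted p 0.0598). Akt1, the kinase downstream of it, fell by 0.70 (edgeR adjusted p 0.00619), from 309 to 190 CPM. Named after their values were seen, the co-receptor Nrp1 was at 191 and 195 CPM (log2 fold change 0.03, adjusted p 0.879), Ptprb, the phosphatase that restrains Tek, was at -0.38 (adjusted p 0.105) and Nos3, the endothelial nitric oxide synthase, at -0.50 (adjusted p 0.0593), neither passing in edgeR.

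Among 22 tested genes of other factors that act on vessels, 6 were called higher and 1 lower, against 10.2% and 8.64% of all tested genes. Tgfb2, a transforming growth factor, rose from 13.5 to 98.3 CPM (log2 fold change 2.87, edgeR adjusted p 2.62e-07). Pdgfc, a platelet-derived growth factor, rose by 2.11 (adjusted p 0.00645), Ctgf, a matricellular protein, by 1.56 (0.000833) and Tgfb3 by 0.92 (0.00273). The gene that fell, named after its values were seen, was Apln, a peptide ligand of the apelin receptor, from 23.6 to 12.7 CPM (log2 fold change -0.90, edgeR adjusted p 0.0134, and with the endothelial covariate -0.42, adjusted p 0.160).

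Genes of oxygen sensing, which control Vegfa in many tissues, moved in both directions. Of 10 tested, 2 were called higher and 3 lower, against 10.2% and 8.64% of all tested genes, with a median log2 fold change of -0.32. The list also holds Ppargc1a and Esrra, which regulate energy metabolism and do not themselves sense oxygen. They stood at -0.34 and -0.31 (edgeR adjusted p 0.379 and 0.143), and the median of the list lies between their values. The prolyl hydroxylases Egln3 and Egln1 fell by 1.18 and 0.53 (edgeR adjusted p 0.000140 and 0.00466), and the HIF subunit Epas1 fell by 0.62 (adjusted p 0.00455). Another HIF hydroxylase, Hif1an, named after its values were seen, rose by 0.37 (edgeR adjusted p 0.0246). Hif1a rose by 0.55, from 224 to 328 CPM (adjusted p 0.0154). With the endothelial covariate it was at 0.53 and did not pass (edgeR adjusted p 0.0873). A fixed list of other hypoxia-responsive genes, which leaves out Vegfa, Egln1 and Egln3, had 15 tested genes. Of these, 1 was called higher (P4ha1, a collagen prolyl hydroxylase, 0.56, edgeR adjusted p 0.0167). In the other direction 1 was called lower (Adm, the vasodilator adrenomedullin, -0.85, edgeR adjusted p 0.0300). The call of Adm held in 6 of the 10 fits without a single animal and was lost with the endothelial covariate (-0.88, edgeR adjusted p 0.0946). The median of this list was -0.05. Over all tested genes 10.2% were called higher and 8.64% lower.

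**Figure D4:**
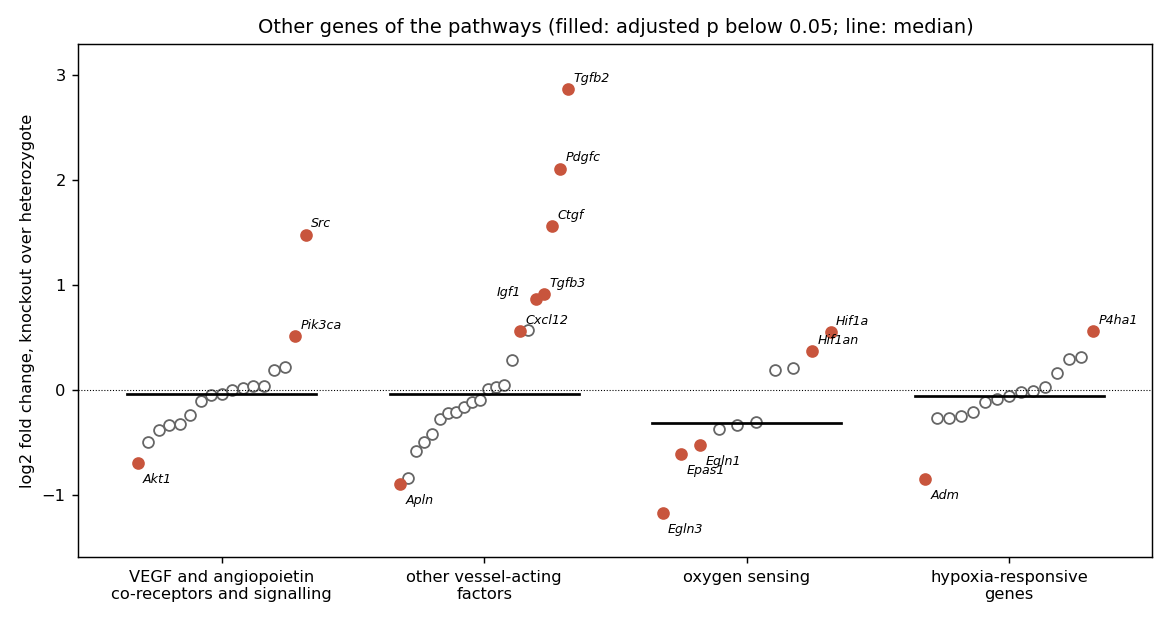
Log2 fold change of each tested gene in 4 fixed lists of pathway genes, in order of size within a list (filled and named where the edgeR adjusted p was below 0.05, line at the median). The medians lie at -0.04, -0.04, -0.32 and -0.05, and the largest rise is that of Tgfb2. The -0.32 is that of the oxygen-sensing list, which includes Ppargc1a and Esrra.

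Markers of other cell types were read in the same libraries, where 10.2% of all tested genes were called higher and 8.64% lower. Of 9 tested fibroblast markers none was called by edgeR. Of 8 mural markers, which mark pericytes and smooth muscle cells, 1 was called, Cspg4, which codes for the NG2 proteoglycan and rose from 37.0 to 132 CPM (log2 fold change 1.84, edgeR adjusted p 1.23e-06), while the median of the list was -0.33. Leukocyte markers were scarce, with a sum of 13.3 to 38.6 CPM in the heterozygotes and 8.43 to 11.4 CPM in the knockouts. Of the 4 tested, Csf1r was called lower (-0.86, edgeR adjusted p 0.0216, held in 8 of the 10 fits without a single animal and lost with the endothelial covariate at -0.72, adjusted p 0.153). Of 10 cardiomyocyte markers 1 was called lower (Tnni3, -0.53, edgeR adjusted p 0.00165), with a median of -0.08. The part of the endothelial content of the libraries in the levels of the 4 receptors was not tested. The covariate fit cannot separate it, because its markers are endothelial genes like the receptors and had lower levels in the knockout themselves.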

How the data were processed

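Per the file headers, the authors counted reads per gene with featureCounts 1.5.1 (4 threads, no other option) against the UCSC annotation of mm10, and deposited whole-number counts without normalisation. By the defaults of that program strand is not used and reads with several alignments are left out. The submitters' processing notes name STAR 2.5.3a, Subread 1.5.2 and CASAVA 1.8, while the alignment files in the header carry another aligner's default name, so the aligner is uncertain. Per the labels' protocols, cells were sorted, cDNA was made from 10 ng of RNA with 8 PCR cycles (SMART-Seq), and 500 pg went into each Nextera XT library.

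Of 14 count columns, 4 match no sample here and were not used. Genes were filtered with filterByExpr (minimum count 10, minimum total 15), scaled by TMM and tested by the quasi-likelihood method of edgeR 4.0.16 under R 4.3.3, with the 10 samples in 1 fit and no covariate. The threshold was an adjusted p of 0.05, the SE is the log2 fold change divided by the square root of F, and the prior count for log2 CPM is 1. Alternatives were RLE, upper-quartile and library-total scaling, no filter, a filter at 5 CPM, the replicate number, endothelial and Y-linked covariates, DESeq2 1.42.0, limma 3.58.1 (voom) and leaving out each animal. The series text calls the 5 samples of each group biological replicates. The endothelial covariate is the mean log2 CPM of the 22 markers. Replicate pairs differed by a chi-square of 10.8 to 37.5 per degree of freedom, so none is a copy of another. Intervals cover the fit, and PCR copies are not independent molecules.

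On simulated counts for this comparison (11870 genes), the fit called 79.1% of 91 genes changed 2-fold and 100% of 105 changed 4-fold. Unchanged genes made up 4.32% of what it called. The counts were drawn from the fit's own estimates of spread, with far fewer changed genes than were called in the data. Every tested member had an estimated change of less than 2-fold, so these shares do not carry over to the members. Members and lists were chosen with earlier results of these data known. Named genes are the 10 members, up to 4 called genes of each list by size, Pecam1, Cdh5, Myh6, Tnnt2, Actn2 and the 5 closest patterns to Vegfa and Kdr.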

Additional observations from a re-analysis of the deposited data

Results flagged for a closer look

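Samples far from the rest of their group were looked for in 44 groups of 5 values, and 4 were found where the gap to the nearest sample exceeded 0.71 of the range. Chance gives about 1 in 20 groups. Tek was at 61.8 CPM in heterozygote 4, against 44.6 CPM in the next highest. The ratio of Vegfb to Vegfa per kilobase was 2.30 in knockout 1, against 1.93. The ratio of Angpt1 to Angpt2 per kilobase was 32.9 in heterozygote 5, against 11.2, and rests on 14 reads of Angpt2. The total count of heterozygote 1 was 25237696, against 10309615.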

How the results depend on the processing

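Calls over all genes numbered 2241, and 1384 with the endothelial covariate, which lies beyond 1.5 times. The count of called members, 2, became 6 with DESeq2, which called 2625 of all 11870 genes. Without single animals it ranged from 2 to 4, in fits that called 1699 to 2258 genes in all. The 4 was reached without heterozygote 1 (Vegfc and Tie1 added), heterozygote 5 (Flt1 and Tie1) or knockout 2 (Kdr and Tek). The cause was not tested. With the replicate number as a block, 6 members were called and 2182 genes in all. Those added to Vegfb and Angpt1 were Vegfc (edgeR adjusted p 0.0472), Kdr (0.0319), Tek (0.0280) and Tie1 (0.0235). The deviations of same-numbered samples correlated by 0.112, -0.0124, -0.0604, 0.185 and 0.141, above 0.1 in 3 of 5 pairs, and 2 of the 5 heterozygotes correlated best with the knockout of their own number. No label says that a number marks a shared litter or day, so the numbers were not taken to pair the animals.

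Vegfb and Angpt1 kept direction and call in all settings run. Over 178 combinations of member and setting, 158 kept direction and side of the threshold, 18 newly passed and 2 changed sign, both with the endothelial covariate (Angpt2 at 0.00219, Flt1 at 0.0989), as did Ets1 (0.0265). Myh6 changed sign with library totals (0.0445) and without single animals (-0.120 to 0.0890). The filter at 5 CPM left 7 members tested. Endothelial markers were not refitted with their own covariate. Counts were lowest for Pgf (2 to 28 per library), Angpt2 (7 to 64) and Vegfc (24 to 92), which limits their precision.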
